A study of Mus musculus with 12 samples.

Results

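The 9 genes described here encode the machinery that loads and displays peptides on MHC class II molecules, and they were chosen by name from that pathway. They are Cd74, H2-Aa, H2-Ab1, H2-Eb1, H2-DMa, H2-DMb1, H2-Oa, H2-Ob and Ciita, which make 9 of the 45906 genes in the count table. All 9 were among the 20155 genes that passed the filter on low counts. RNA of whole spinal cord was sequenced from 12 mice of 7 months on a C57BL/6 background, with 3 mice in each of 4 genotypes. Plekhg5+/+ mice carried no transgene, Plekhg5-/- mice lacked Plekhg5 in all tissues, and the Plekhg5+/+ SOD1-G93A and the Plekhg5-/- SOD1-G93A groups carried in addition a transgene for mutant human SOD1, the model of familial amyotrophic lateral sclerosis. The crosses ask how loss of Plekhg5, a regulator of autophagy in motor neurons, modifies the disease of SOD1-G93A mice. Each library is a whole tissue, so fewer cells of a type and less RNA per cell cannot be told apart.

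MHC class II molecules are pairs of an alpha and a beta chain that show peptides from endosomes to CD4+ T cells. The chains assemble with the invariant chain Cd74, which fills the groove until endosomal proteases cut it down to a short remnant. The editor H2-DM then exchanges this remnant for other peptides, and H2-O binds H2-DM and restrains it. Transcription of these genes depends on the coactivator Ciita, which is recruited by the RFX, CREB and NF-Y proteins bound at the X and Y boxes of their promoters. In healthy nervous tissue class II is scarce and found mostly on macrophages at the borders, and microglia can acquire it in disease.

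Promoter stretches are shown because class II promoters are known for their shared X and Y boxes. Promoter windows were taken from RefSeq on GRCm38.p6, and 6 of the 9 genes were matched. Each window is 300 bases long, with 250 before and 50 after a start annotated for the gene. H2-Ab1, Cd74 and Ciita are not in the table of windows. Each stretch has 50 bases and is written 5′ to 3′ on the strand of the gene. Capitals mark TGATTGG, the letters of the Y box (an inverted CCAAT box), and AGNAAC, from the X box.
H2-Aa: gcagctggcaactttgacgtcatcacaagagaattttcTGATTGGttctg
H2-Eb1: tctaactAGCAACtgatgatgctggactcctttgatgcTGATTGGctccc
H2-DMb1: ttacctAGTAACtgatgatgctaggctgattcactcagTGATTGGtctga
H2-Oa: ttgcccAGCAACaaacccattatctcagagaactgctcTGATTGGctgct
H2-Ob: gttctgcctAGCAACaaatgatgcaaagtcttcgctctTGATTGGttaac
The stretches lie at chr17:34287862-34287911 on the minus strand for H2-Aa, and on the plus strand at chr17:34305768-34305817 for H2-Eb1, chr17:34153090-34153139 for H2-DMb1, chr17:34092296-34092345 for H2-Oa and chr17:34238808-34238857 for H2-Ob. In H2-Eb1, H2-DMb1, H2-Oa and H2-Ob the letters AGNAAC started 31, 32, 32 and 29 bases before TGATTGG, and the stretch of H2-Aa holds no AGNAAC. The windows of H2-DMa, at chr17:34122582-34122881 and chr17:34125268-34125567, hold TGATTGG on neither strand. They lie inside the gene as it was counted, which starts at 34119693. The sequence at that start is not shown, so the promoter there was not examined for the boxes. Over all 32851 windows and on either strand, 7.82% hold TGATTGG, 48.1% hold AGNAAC, and 34 windows (0.103%) hold AGNAAC at a start 28 to 35 bases before TGATTGG on the same strand. The letters and the spacing were chosen after these windows had been read, and a match describes the sequence only.

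The libraries held 30415643 to 38743628 counts, with a median of 32714352. Plekhg5 was lower in Plekhg5-/- than in Plekhg5+/+ mice by a log2 fold change of -2.53 (edgeR, adjusted p 5.39e-06), and human SOD1 was at 4421 to 5638 CPM in Plekhg5+/+ SOD1-G93A and at 0.153 to 1.64 CPM in Plekhg5+/+ libraries. Markers of neurons, oligodendrocytes and astrocytes were present in every library. Transcripts of the Y chromosome were found in 3, 2, 2 and 1 of the 3 libraries of Plekhg5+/+, Plekhg5-/-, transgenic Plekhg5+/+ and transgenic Plekhg5-/- mice, so sex is not spread evenly over the genotypes. A gene is said below to rise or fall where the edgeR adjusted p over all genes tested was under 0.05.

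Class II transcripts were scarce in these spinal cords. Levels of different genes were compared as CPM (counts scaled to the size of the library) per kilobase of exon, averaged over the 12 libraries. Cd74 was highest with 10.8 CPM per kb, followed by the classical chains H2-Aa with 6.11, H2-Ab1 with 4.61 and H2-Eb1 with 3.41 CPM per kb. This order of the 4 genes held in 12 of 12 libraries. H2-DMb1 with 2.80 CPM per kb was below H2-Eb1 in 10 of 12 libraries only. H2-DMa was at 1.33 CPM per kb with the deposited exon length of 8325 bases, and at 4.15 CPM per kb with the 2668 bases of GENCODE, which places it above H2-DMb1 in place of below it in 12 of 12 libraries. The chains of H2-O were lower, with 0.800 CPM per kb for H2-Oa and 0.480 for H2-Ob, and H2-Oa exceeded H2-Ob in 10 of 12 libraries. Ciita was lowest with 0.0351 CPM per kb, or 5 to 21 counts per library.

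**Figure D1:**
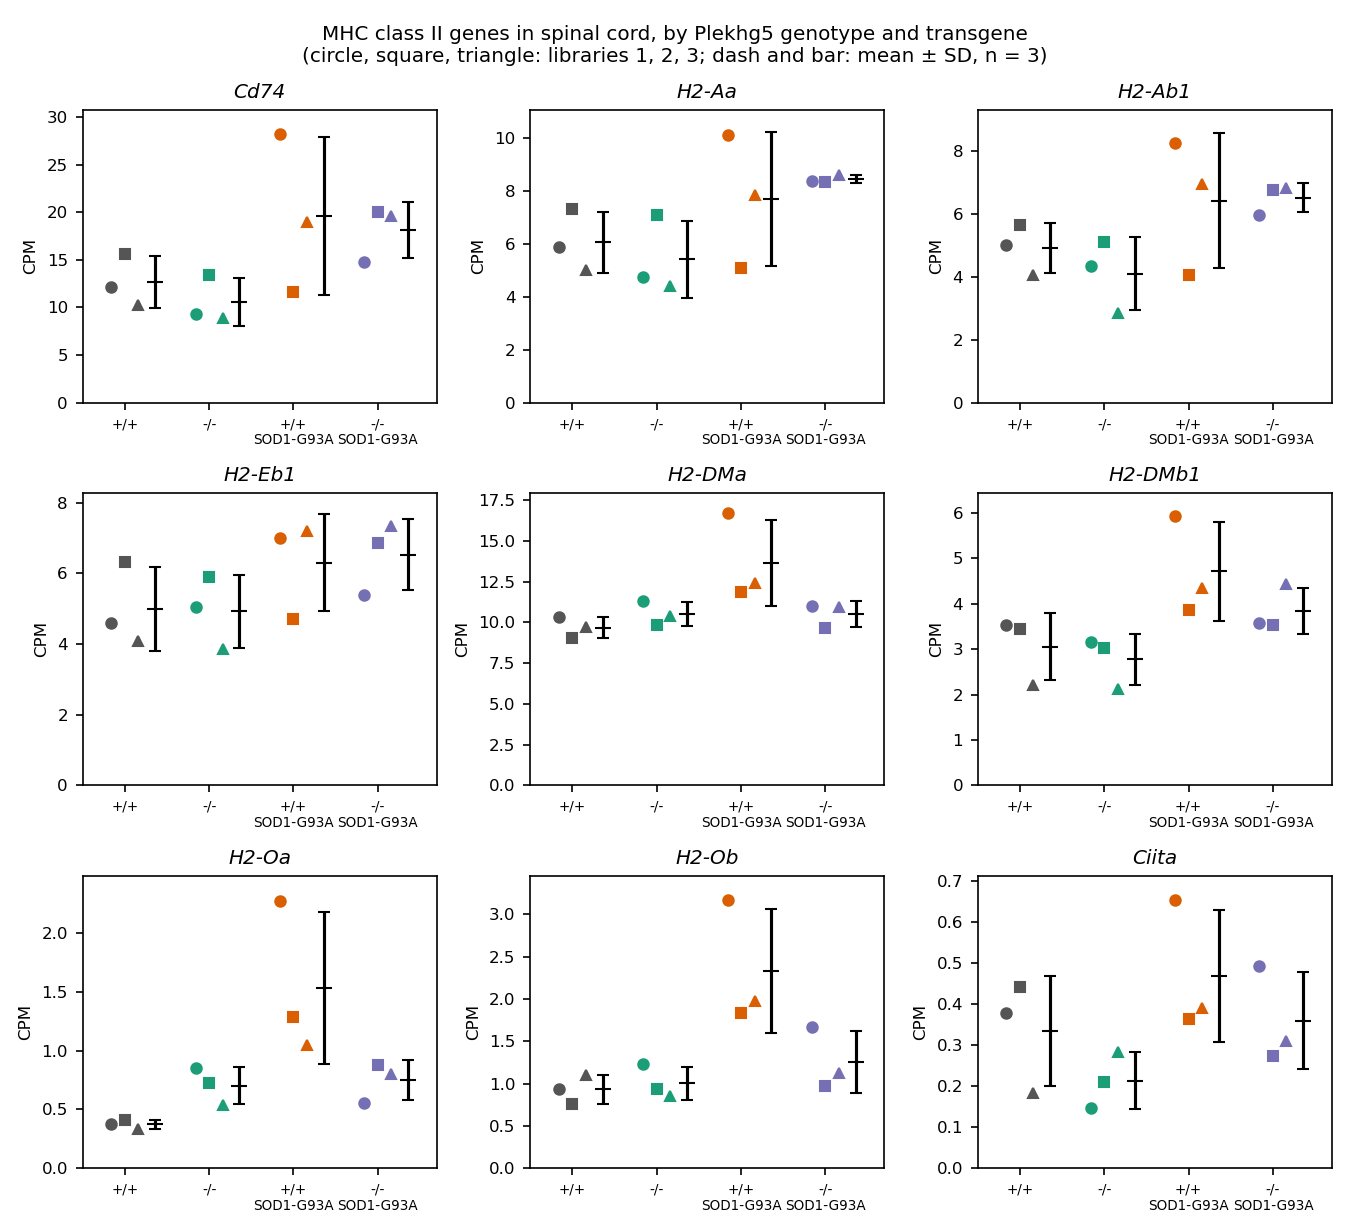
Level of each of the 9 genes in CPM (vertical axis, linear, from 0) in the 3 libraries of each genotype, with the mean and SD beside them. The Plekhg5+/+ SOD1-G93A libraries of H2-Oa and H2-Ob lie above all other libraries, at 1.05 to 2.27 and 1.83 to 3.17 CPM, while for Cd74 and the classical chains the Plekhg5+/+ SOD1-G93A libraries overlap with the Plekhg5+/+ libraries.

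With Plekhg5 intact, the SOD1-G93A transgene was accompanied by higher transcripts of H2-O, the inhibitor of peptide editing. H2-Oa rose 4.07-fold and H2-Ob 2.50-fold in edgeR, while the prior of DESeq2 shrank their log2 fold changes to 0.51 and 0.48. Thus 2 of the 9 genes rose and 0 fell, while 2.47% of all genes tested (498 genes) changed and 2.09% rose. The count over all genes depended on the control libraries and on the fit: edgeR called 4 genes in all without Plekhg5+/+ library 1, 2 without Plekhg5+/+ library 2 and 3 with only these genotypes in the fit, none of them among the 9. The log2 fold change was above 0 for 9 of 9 genes, with a median of 0.49 against -0.0010 over all genes tested. The 3 transgenic libraries lay above the 3 control libraries for H2-DMa, H2-DMb1, H2-Oa and H2-Ob, which are 4 of 9 genes, against 11.6% of all genes. An unadjusted p under 0.05 was reached in edgeR by 5 of the 9 genes, against 3659 of the 20155 genes tested.

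H2-Oa (chromosome 17 from 34092379 to 34095234, plus strand) encodes the alpha chain of H2-O. It was measured at 0.377, 0.409 and 0.337 CPM in the 3 Plekhg5+/+ libraries and at 2.27, 1.29 and 1.05 CPM in the 3 Plekhg5+/+ SOD1-G93A libraries. The lowest transgenic library was thus well above the highest control library, and library 1 stood highest. The levels were 0.848, 0.723 and 0.536 CPM in Plekhg5-/- and 0.555, 0.880 and 0.803 CPM in Plekhg5-/- SOD1-G93A libraries, so that the mice without Plekhg5 lay between the other genotypes, with and without the transgene. The log2 fold change of Plekhg5+/+ SOD1-G93A against Plekhg5+/+ was 2.03 (SE 0.322, edgeR adjusted p 0.0125). In Plekhg5-/- SOD1-G93A against Plekhg5-/- mice it was 0.09 (SE 0.313, edgeR adjusted p 0.985).

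H2-Ob (chromosome 17 from 34238905 to 34245908, plus strand) encodes the beta chain of H2-O. Its levels were 0.938, 0.755 and 1.10 CPM in Plekhg5+/+ and 3.17, 1.83 and 1.98 CPM in Plekhg5+/+ SOD1-G93A libraries. These groups did not overlap, and again library 1 was highest. In Plekhg5-/- libraries H2-Ob was at 1.23, 0.934 and 0.852 CPM, and in Plekhg5-/- SOD1-G93A libraries at 1.67, 0.971 and 1.13 CPM, both below the Plekhg5+/+ SOD1-G93A libraries and overlapping each other. The log2 fold change between Plekhg5+/+ SOD1-G93A and Plekhg5+/+ mice was 1.32 (SE 0.268, edgeR adjusted p 0.026). The calls of H2-Oa and H2-Ob did not hold in every setting of edgeR: without Plekhg5+/+ library 1 the adjusted p was 0.0663 and 0.0868, without Plekhg5+/+ library 2 it was 0.0916 and 0.131, and with only these genotypes in the fit it was 0.0758 and 0.0898. Without Plekhg5+/+ SOD1-G93A library 1, the log2 fold change of H2-Oa was 1.63 (edgeR adjusted p 0.0145) and that of H2-Ob 1.04 (edgeR adjusted p 0.0953).

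The editor H2-DM was higher by less. H2-DMa (chromosome 17 from 34119693 to 34139101, plus strand), its alpha chain, was measured at 10.3, 9.01 and 9.68 CPM in Plekhg5+/+ libraries and at 16.7, 11.8 and 12.4 CPM in Plekhg5+/+ SOD1-G93A libraries. The groups did not overlap, but the log2 fold change of 0.49 (SE 0.126) missed the threshold with an edgeR adjusted p of 0.0589. It passed with DESeq2 (adjusted p 0.0141 with a prior on fold changes and 0.0148 without it), without Plekhg5-/- library 1 (edgeR adjusted p 0.0492), without Plekhg5+/+ SOD1-G93A library 2 (edgeR adjusted p 0.0299) and with the other settings named in the closing section. Plekhg5-/- libraries had 11.3, 9.82 and 10.4 CPM of H2-DMa and Plekhg5-/- SOD1-G93A libraries 10.98, 9.62 and 10.95 CPM, which overlap.

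H2-DMb1 (chromosome 17 from 34153191 to 34160229, plus strand) encodes the beta chain of H2-DM. It had 3.52, 3.43 and 2.20 CPM in Plekhg5+/+ and 5.93, 3.86 and 4.33 CPM in Plekhg5+/+ SOD1-G93A libraries, without overlap, and a log2 fold change of 0.62 (SE 0.218, edgeR adjusted p 0.151). Plekhg5-/- libraries had 3.16, 3.03 and 2.13 CPM and Plekhg5-/- SOD1-G93A libraries 3.58, 3.52 and 4.43 CPM. The neighbouring H2-DMb2 is a near copy of H2-DMb1, and the shares of reads that both genes received are uncertain, since 4 libraries of H2-DMb1 and 5 of H2-DMb2 hold fractions of reads. H2-DMb2 had a log2 fold change of 0.92 (SE 0.224, edgeR adjusted p 0.0512). It passed as higher in some settings, among them DESeq2 with the prior and edgeR with at least 10 counts in every library. In others, such as DESeq2 without the prior, it did not pass.

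Because H2-O restrains H2-DM, the ratio of their alpha chains was taken from the counts of each library. H2-Oa had 3.65, 4.54 and 3.48% of the counts of H2-DMa in Plekhg5+/+ libraries and 13.6, 10.9 and 8.47% in Plekhg5+/+ SOD1-G93A libraries. Plekhg5-/- libraries had 7.51, 7.36 and 5.15% and Plekhg5-/- SOD1-G93A libraries 5.06, 9.15 and 7.33%. The Plekhg5+/+ libraries were the lowest of the 4 genotypes, and the Plekhg5+/+ SOD1-G93A libraries overlapped with the Plekhg5-/- SOD1-G93A libraries. For the beta chains, H2-Ob had 22.0 to 50% of the counts of H2-DMb1 in Plekhg5+/+ and 45.7 to 53.4% in Plekhg5+/+ SOD1-G93A libraries, with overlap.

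Cd74 (chromosome 18 from 60803849 to 60812652, plus strand), the invariant chain, was measured at 12.1, 15.6 and 10.2 CPM in Plekhg5+/+ libraries and at 28.2, 11.6 and 19.0 CPM in Plekhg5+/+ SOD1-G93A libraries. Libraries 1 and 3 of the transgenic mice were above the controls and library 2 was within their range. The means were 12.7 ± 2.74 and 19.6 ± 8.32 CPM (SD, n = 3), and the log2 fold change of 0.63 (SE 0.284) had an edgeR adjusted p of 0.269. In mice without Plekhg5, Cd74 was at 9.32, 13.4 and 8.93 CPM without and at 14.7, 20.02 and 19.6 CPM with the transgene. Here the groups did not overlap, and the log2 fold change was 0.78 (SE 0.287, edgeR adjusted p 0.833).

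The classical chains had the same order of libraries among Plekhg5+/+ SOD1-G93A mice for H2-Aa and H2-Ab1, with library 1 highest and library 2 lowest. H2-Aa (chromosome 17 from 34282744 to 34287823, minus strand), the alpha chain of the A molecule, had 5.86, 7.30 and 5.02 CPM in Plekhg5+/+ and 10.1, 5.08 and 7.83 CPM in Plekhg5+/+ SOD1-G93A libraries, with a log2 fold change of 0.34 (SE 0.232, edgeR adjusted p 0.476). H2-Ab1 (chromosome 17 from 34263227 to 34269418, plus strand), its beta chain, had 5.02, 5.67 and 4.07 CPM in Plekhg5+/+ and 8.26, 4.06 and 6.96 CPM in Plekhg5+/+ SOD1-G93A libraries, with a log2 fold change of 0.39 (SE 0.246, edgeR adjusted p 0.445). For both genes the transgenic libraries reached from the level of the lowest controls to above the highest control.

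In mice without Plekhg5 the same genes were more even among the transgenic animals. H2-Aa was at 4.74, 7.08 and 4.42 CPM in Plekhg5-/- and at 8.39, 8.32 and 8.60 CPM in Plekhg5-/- SOD1-G93A libraries, and the log2 fold change was 0.64 (SE 0.232, edgeR adjusted p 0.813). H2-Ab1 was at 4.36, 5.12 and 2.84 CPM in Plekhg5-/- and at 5.98, 6.77 and 6.84 CPM in Plekhg5-/- SOD1-G93A libraries, and the log2 fold change was 0.67 (SE 0.247, edgeR adjusted p 0.833). The transgenic libraries were above the others for both genes, without passing the threshold. The SD among the 3 mice was 1.72% of the mean for H2-Aa in Plekhg5-/- SOD1-G93A and 32.9% in Plekhg5+/+ SOD1-G93A mice. In the same order it was 7.27 and 33.5% for H2-Ab1 and 15.4 and 21.8% for H2-Eb1. The contrast was not particular to class II, with 1.35 and 35.3% for the astrocyte marker Gfap and 3.23 and 43.6% for the protease Ctss. Other genes lacked it, such as the neuron marker Slc5a7 with 17.1 and 12.5%.

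H2-Eb1 (chromosome 17 from 34305867 to 34316674, plus strand), the beta chain of the E molecule, was measured at 4.58, 6.33 and 4.07 CPM in Plekhg5+/+ and at 6.99, 4.72 and 7.20 CPM in Plekhg5+/+ SOD1-G93A libraries, with a log2 fold change of 0.34 (SE 0.213, edgeR adjusted p 0.443). Plekhg5-/- libraries had 5.03, 5.91 and 3.85 CPM and Plekhg5-/- SOD1-G93A libraries 5.40, 6.86 and 7.33 CPM, and all genotypes overlapped. The alpha chain of the E molecule is known to be defective in C57BL/6 mice. Its gene is listed as the pseudogene H2-Ea-ps and had 0 counts in each of the 12 libraries. For a library taken alone, 0 counts allow an expected count of up to about 3, and the 12 libraries together allow less.

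Ciita (chromosome 16 from 10480014 to 10531064, plus strand), the coactivator of the other genes, had few counts. It was measured at 0.377, 0.441 and 0.184 CPM in Plekhg5+/+, at 0.146, 0.211 and 0.284 CPM in Plekhg5-/-, at 0.652, 0.363 and 0.390 CPM in Plekhg5+/+ SOD1-G93A and at 0.493, 0.273 and 0.311 CPM in Plekhg5-/- SOD1-G93A libraries. Within each Plekhg5 genotype, the group with the transgene overlapped with the group without it. The log2 fold change between Plekhg5+/+ SOD1-G93A and Plekhg5+/+ mice was 0.49 (SE 0.381, edgeR adjusted p 0.545), which is within 1.5 SE of 0.

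**Figure D2:**
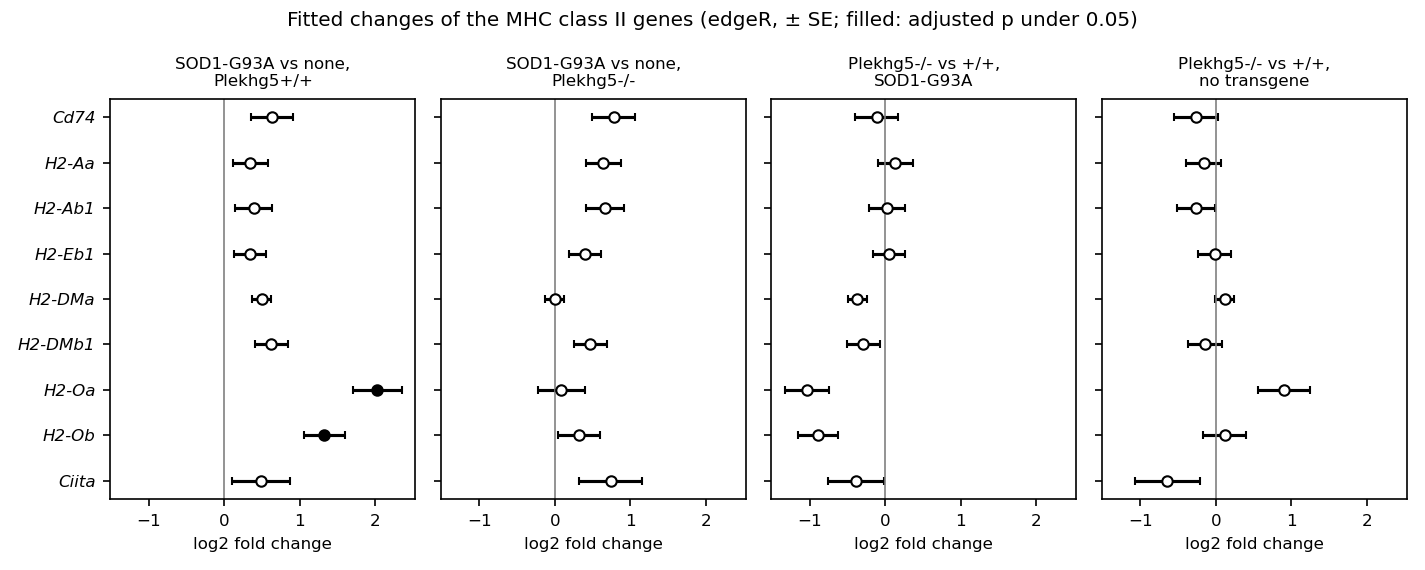
Log2 fold change of each gene (horizontal axis, points with SE from edgeR) in 4 comparisons, with filled points for an adjusted p under 0.05. H2-Oa at 2.03 and H2-Ob at 1.32 are the filled points, both for the transgene in Plekhg5+/+ mice.

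The comparison of Plekhg5-/- SOD1-G93A with Plekhg5+/+ SOD1-G93A mice asks whether loss of Plekhg5 alters these transcripts in diseased spinal cord. None of the 9 genes passed the threshold in edgeR, DESeq2 with or without the prior, or limma voom, and 0.0347% of all genes (7 genes) did in edgeR. Over all genes, DESeq2 called 114 with and 71 without the prior, and limma voom 8. The chains of H2-O were lower, with log2 fold changes of -1.03 for H2-Oa (SE 0.293, edgeR adjusted p 0.402) and -0.89 for H2-Ob (SE 0.259, edgeR adjusted p 0.416), and H2-DMa had -0.37 (SE 0.125, edgeR adjusted p 0.489). These are the 3 genes with an unadjusted p under 0.05 in edgeR, which 1741 of the 20155 genes tested had as well. They are also the 3 of 9 genes whose Plekhg5-/- SOD1-G93A libraries were all below the Plekhg5+/+ SOD1-G93A libraries, against 10% of all genes. Cd74 and the chains H2-Aa, H2-Ab1 and H2-Eb1 had log2 fold changes of -0.11 (SE 0.280), 0.13 (SE 0.228), 0.02 (SE 0.242) and 0.05 (SE 0.210), so the errors span changes in either direction. H2-DMb1 was at -0.29 (SE 0.215) and Ciita at -0.39 (SE 0.374).

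For the transgene in mice without Plekhg5, 0 of the 9 genes passed in edgeR, DESeq2 or limma voom. An unadjusted p under 0.05 in edgeR was reached by 3 of the 9, against 1084 of the 20155 genes tested. In edgeR, 0.00496% of all genes passed, which is human SOD1 alone. Over all genes, limma voom called 9, and DESeq2 42 with and 44 without the prior. The log2 fold change was above 0 for 9 of 9 class II genes with a median of 0.47, against -0.0049 over all genes. The transgenic libraries lay above the others for Cd74, H2-Aa, H2-Ab1 and H2-DMb1, or 4 of 9 genes, against 7.26% of all genes. H2-DMb1 had a log2 fold change of 0.47 (SE 0.220), H2-Eb1 of 0.41 (SE 0.213), H2-Ob of 0.32 (SE 0.276) and Ciita of 0.74 (SE 0.421), while that of H2-DMa was 0.0015 (SE 0.126) and took either sign under other settings.

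Loss of Plekhg5 without the transgene changed 0 of the 9 genes in edgeR, DESeq2 and limma voom, beside 0.0298% of all genes in edgeR. Over all genes, DESeq2 called 35 with and 36 without the prior, and limma voom 7. H2-Oa alone of the 9 had an unadjusted p under 0.05 in edgeR, against 1073 of the 20155 genes tested. Its log2 fold change was 0.91 (SE 0.345, edgeR adjusted p 0.929). H2-Oa was also the 1 gene of the 9 whose Plekhg5-/- libraries were all above the Plekhg5+/+ libraries, against 4.71% of all genes. The other 8 genes had log2 fold changes from -0.64 for Ciita to 0.12 for H2-DMa.

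Whether the effect of the transgene differs with Plekhg5 was tested as an interaction. It passed for 0 of the 9 genes and for 0% of all genes in edgeR, where 1824 genes had an unadjusted p under 0.05. DESeq2 called 114 genes with and 102 without the prior, and limma voom 0, none of them among the 9. The interaction was most negative for H2-Oa with -1.94 (SE 0.452), an unadjusted p of 0.000934 and an adjusted p of 0.338 in edgeR. H2-Ob had -1.01 (SE 0.385, edgeR adjusted p 0.469) and H2-DMa -0.49 (SE 0.178, edgeR adjusted p 0.458). For Cd74, H2-Aa, H2-Ab1, H2-Eb1 and Ciita it was above 0, between 0.07 and 0.30, and H2-DMb1 had -0.15 (SE 0.310). The comparisons share libraries, so their values for a gene are not independent of each other.

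Across the 12 libraries, the profiles were compared as the root mean square difference of log2 CPM after the mean of each gene was subtracted. H2-Aa and H2-Ab1 differed by 0.134, less than H2-Aa differed from any other gene tested, while H2-Aa itself varied by 0.377 about its mean. H2-Eb1 differed from H2-Aa by 0.181, and Cd74 differed from H2-Aa and from H2-Ab1 by 0.174 each. H2-Oa was far from these genes, with 0.642 to H2-Aa and 0.575 to Cd74, and was nearest among the 9 to H2-Ob with 0.430. Outside the 9 genes, the profiles most like Cd74 were those of S100a11, Mir5107, Parp10, Samd9l and Eva1b, at 0.206 to 0.217. The 5 profiles most like H2-Aa, at 0.152 to 0.191, included those of Myof, Il10rb, Ecm1 and Steap3. These are descriptions over 12 libraries that share genotypes, and carry no test.

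Microglial markers moved with the transgene as well. The sum of 10 genes, among them Csf1r, Aif1, Itgam, Cx3cr1, P2ry12, Tmem119 and the chains of complement C1q, was 492 to 572 CPM in Plekhg5+/+, 536 to 744 in Plekhg5-/-, 922 to 1717 in Plekhg5+/+ SOD1-G93A and 693 to 769 CPM in Plekhg5-/- SOD1-G93A libraries, with none of the genes at 0. Of the 10 genes, 9 rose in Plekhg5+/+ SOD1-G93A against Plekhg5+/+ mice (edgeR), while 2.09% of all genes tested rose. In transgenic mice, 0 of the 10 fell with loss of Plekhg5. There 9 of the 10 had an unadjusted p under 0.05 in edgeR, against 1741 of the 20155 genes tested. Of the 9 that rose with the transgene in Plekhg5+/+ mice, 0 passed without Plekhg5+/+ library 1, without library 2 or with only these genotypes in the fit, and 5 of the 10 passed without a filter on low counts. The highest library of the sum, Plekhg5+/+ SOD1-G93A library 1, was also the highest of Cd74, H2-Aa, H2-Ab1, H2-DMa, H2-DMb1, H2-Oa, H2-Ob and Ciita. The part of microglial content in the results on the 9 genes was not tested.

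Levels were also taken per 1000 CPM of the microglial markers. The marker sum was itself higher in Plekhg5+/+ SOD1-G93A than in Plekhg5+/+ libraries. A gene that is unchanged, or higher by less than the sum, therefore comes out lower here. These ratios compare a gene with the sum and do not test a change of the gene. Cd74 was at 21.7, 31.8 and 17.9 in Plekhg5+/+ and at 16.4, 12.6 and 19.2 in Plekhg5+/+ SOD1-G93A libraries, with overlap. H2-Aa was at 10.5, 14.8 and 8.77 in Plekhg5+/+ and lower, at 5.90, 5.51 and 7.91, in Plekhg5+/+ SOD1-G93A libraries, and H2-DMa was lower too, at 9.72 to 12.8 against 16.9 to 18.5. H2-Oa was at 0.676, 0.831 and 0.589 in Plekhg5+/+ and higher, at 1.32, 1.40 and 1.06, in Plekhg5+/+ SOD1-G93A libraries. It was at 1.14, 1.14 and 1.00 in Plekhg5-/- and at 0.721, 1.18 and 1.16 in Plekhg5-/- SOD1-G93A libraries, both overlapping with the Plekhg5+/+ SOD1-G93A libraries. In Plekhg5-/- libraries Cd74 was at 12.5, 21.2 and 16.7, H2-Aa at 6.37, 11.2 and 8.24, and H2-DMa at 15.2, 15.5 and 19.4 per 1000 CPM. In Plekhg5-/- SOD1-G93A libraries Cd74 was at 19.2, 26.9 and 28.2, H2-Aa at 10.9, 11.2 and 12.4, and H2-DMa at 14.3, 12.9 and 15.8 per 1000 CPM. There H2-Aa was above all 3 Plekhg5+/+ SOD1-G93A libraries, and Cd74 overlapped them at its lowest library.

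**Figure D3:**
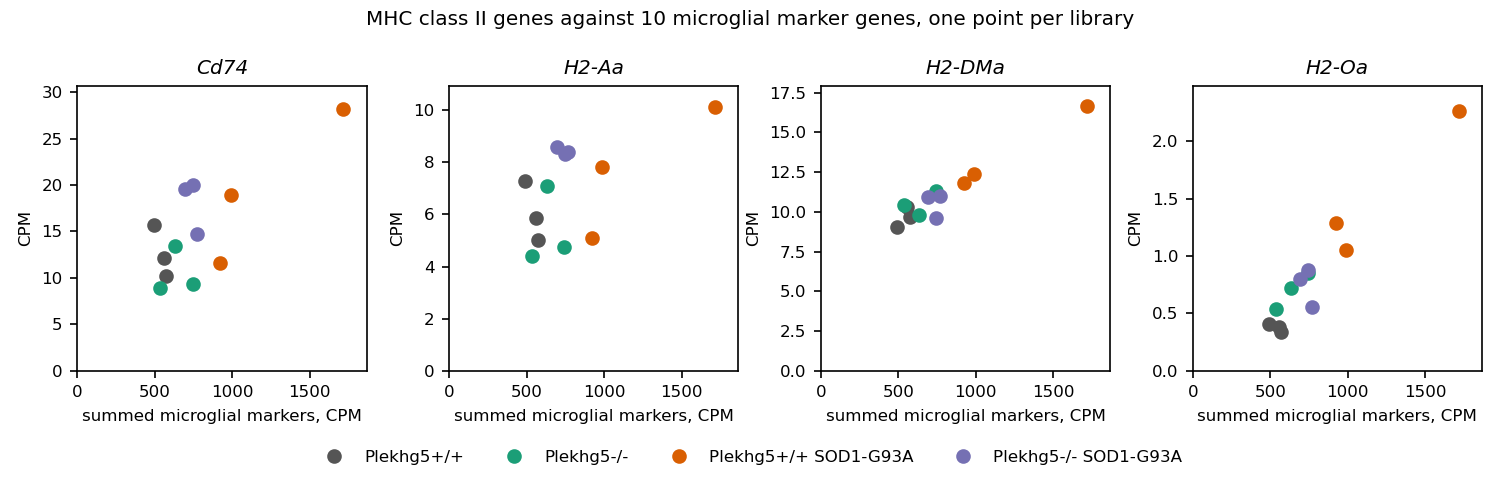
Level of Cd74, H2-Aa, H2-DMa and H2-Oa in CPM (vertical axes) against the summed level of 10 microglial marker genes in CPM (horizontal axes), with 1 point per library and linear axes from 0. The 3 Plekhg5+/+ SOD1-G93A libraries have the highest marker sums, 922 to 1717 CPM, while H2-Aa at 5.08 to 10.1 CPM in them overlaps with the libraries without the transgene.

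Other cells that carry class II were looked for by their markers. B cells are the best known site of H2-O. Of 6 B cell markers, Cd79b, a part of the B cell receptor, rose between Plekhg5+/+ and Plekhg5+/+ SOD1-G93A mice by a log2 fold change of 1.84 (SE 0.408, edgeR adjusted p 0.0366), from 0.286 ± 0.134 to 1.03 ± 0.436 CPM (SD, n = 3). This call was lost in several settings, among them limma voom and when any 1 of the Plekhg5+/+ libraries, or Plekhg5+/+ SOD1-G93A library 1, was left out. Ms4a1 was at 0.116 to 0.409 CPM in Plekhg5+/+ and at 0.231 to 0.839 CPM in Plekhg5+/+ SOD1-G93A libraries (log2 fold change 1.04, SE 0.514, edgeR adjusted p 0.310). In this comparison 5 of the 6 log2 fold changes were above 0 and 1 was below 0, with a median of 1.07. An unadjusted p under 0.05 was reached in edgeR by 3 of the 6, against 3659 of the 20155 genes tested. The sum of the list was 61.5 to 76.3 CPM in Plekhg5+/+ and 57.3 to 70.8 CPM in Plekhg5+/+ SOD1-G93A libraries. It came mostly from Ighm, with means of 65.7 and 58.0 CPM, so it says little about the other markers. The part of B cells in the results on H2-Oa and H2-Ob was not tested.

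Border macrophage markers summed to 12.8 to 22.3 CPM in Plekhg5+/+, 11.4 to 16.9 in Plekhg5-/-, 11.02 to 21.7 in Plekhg5+/+ SOD1-G93A and 16.3 to 21.6 CPM in Plekhg5-/- SOD1-G93A libraries, and 1 of 8 rose with the transgene in Plekhg5+/+ mice, Ms4a7 (log2 fold change 2.58, SE 0.410, edgeR adjusted p 0.0125). The log2 fold change of 6 of the 8 was below 0, and the median was -0.27. Over all genes tested, 2.09% rose. Of 8 dendritic cell markers, 4 were too low to be tested: Xcr1, Clec9a, Cd209a and Ccr7. Xcr1, which defines cross-presenting dendritic cells, was at 0 in every library of 3 genotypes and at most at 0.0660 CPM in Plekhg5+/+ SOD1-G93A mice. Of the 4 markers tested, 2 had a log2 fold change above 0 and 2 below 0. Siglech, which is known in plasmacytoid dendritic cells and also in microglia, rose (log2 fold change 0.54, SE 0.118, edgeR adjusted p 0.0358). Flt3, the receptor of a growth factor of dendritic cells, was at 31.9 ± 3.98 CPM in Plekhg5+/+ and at 23.9 ± 3.08 CPM in Plekhg5+/+ SOD1-G93A libraries (SD, n = 3). All transgenic libraries were below the controls, as for 1818 of the 20155 genes tested. The log2 fold change of Flt3 was -0.42 (SE 0.106, edgeR adjusted p 0.0591). Flt3 passed as lower in both DESeq2 fits, with the replicate block and without a filter on low counts. Zbtb46, a transcription factor of classical dendritic cells, was at 9.30 ± 1.29 and 8.07 ± 1.26 CPM (SD, n = 3). None of 6 markers of monocytes and neutrophils rose or fell in edgeR, with 0 at an unadjusted p under 0.05, and their sum ranged from 15.9 to 50.4 CPM in Plekhg5+/+ and from 31.1 to 90.3 CPM in Plekhg5+/+ SOD1-G93A libraries.

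The regulators upstream of class II divided. Of 11 transcription genes, 2 rose and 0 fell in Plekhg5+/+ SOD1-G93A against Plekhg5+/+ mice: Irf8, a factor of myeloid cells, with a log2 fold change of 1.64 (SE 0.283, edgeR adjusted p 0.0165), and Spi1, the myeloid factor PU.1, with 1.27 (SE 0.222, edgeR adjusted p 0.0158). The median of the list was 0.08, against -0.0010 over all genes tested, of which 2.09% rose. Creb1, which encodes the CREB protein of the X box, was lower in all 3 transgenic libraries than in all 3 controls, as were 1818 of the 20155 genes tested. Its log2 fold change was -0.38 (SE 0.0999, edgeR adjusted p 0.0657). Creb1 passed as lower in both DESeq2 fits and in edgeR without a filter on low counts. The other genes of the complex on the X and Y boxes, Rfx5, Rfxap, Rfxank, Nfya, Nfyb and Nfyc, had log2 fold changes between -0.12 and 0.11 and did not pass. Of 6 genes of the interferon-gamma input, which induces Ciita, 5 could be tested and none passed in edgeR. An unadjusted p under 0.05 was reached there by 2 of them, against 3659 of the 20155 genes tested. Ifng itself had at most 1 count in a library, and Jak1, the most abundant gene of the list per length, had a log2 fold change of -0.15 (SE 0.0712, edgeR adjusted p 0.296).

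Of the endosomal proteins that act on the invariant chain and the antigens, 7 of 9 rose and 0 fell between Plekhg5+/+ and Plekhg5+/+ SOD1-G93A mice. Their median log2 fold change was 1.03. Over all genes tested, 2.09% rose and the median was -0.0010. The count of endosomal genes that rose was 0 without Plekhg5+/+ library 1, without library 2 or with only these genotypes in the fit. It was 1 without a filter on low counts, 2 without Plekhg5+/+ library 3 and 3 in limma voom. It was 4 without Plekhg5-/- library 2 or Plekhg5-/- SOD1-G93A library 2, and 5 to 8 in the other settings. Ctss, which removes the last part of the invariant chain in many antigen-presenting cells, went from 123 ± 15.5 to 306 ± 134 CPM (SD, n = 3), a log2 fold change of 1.31 (SE 0.238, edgeR adjusted p 0.0206). Ctsl was at 0.75, Ctsb at 0.56, Ctsd at 1.22, Ctsh at 1.05 and Ctsz at 1.20 on the log2 scale, with edgeR adjusted p-values between 0.0197 and 0.0411. Ifi30, a reductase that opens disulfide bonds of antigens, was at 1.03 (SE 0.246, edgeR adjusted p 0.0493). Lgmn and the protease inhibitor Cst3 were at 0.28 and 0.30 and did not pass.

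At the cell surface, 1 of 5 co-stimulation genes rose, against 2.09% of all genes tested. It was Cd86, the ligand of CD28, with a log2 fold change of 1.29 (SE 0.250, edgeR adjusted p 0.0206). None of 3 genes of surface turnover passed in edgeR, where 1 had an unadjusted p under 0.05, and the most abundant of them per length, Cd83, had a log2 fold change of 0.15 (SE 0.0686, edgeR adjusted p 0.255). Lag3, a receptor for class II molecules, went from 5.38 to 5.95 CPM in Plekhg5+/+ to 12.0 to 37.1 CPM in Plekhg5+/+ SOD1-G93A libraries (log2 fold change 1.91, SE 0.341, edgeR adjusted p 0.0198). The calls of Irf8, Spi1, Cd86, Lag3, Ms4a7 and Siglech were likewise lost without Plekhg5+/+ library 1, without library 2 and with only these genotypes in the fit. The level of Lag3 is uncertain, since 9 of 12 libraries hold fractions of reads that were shared with other genes. In the other comparisons and the interaction, 0 genes of these lists passed in edgeR. An unadjusted p under 0.05 was reached there most often by the endosomal enzymes, with 8 of 9 between the transgenic genotypes, where 9 of 9 log2 fold changes were below 0 with a median of -0.42. In that comparison 1741 of the 20155 genes tested reached it, and the median over all of them was -0.0097.

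**Figure D4:**
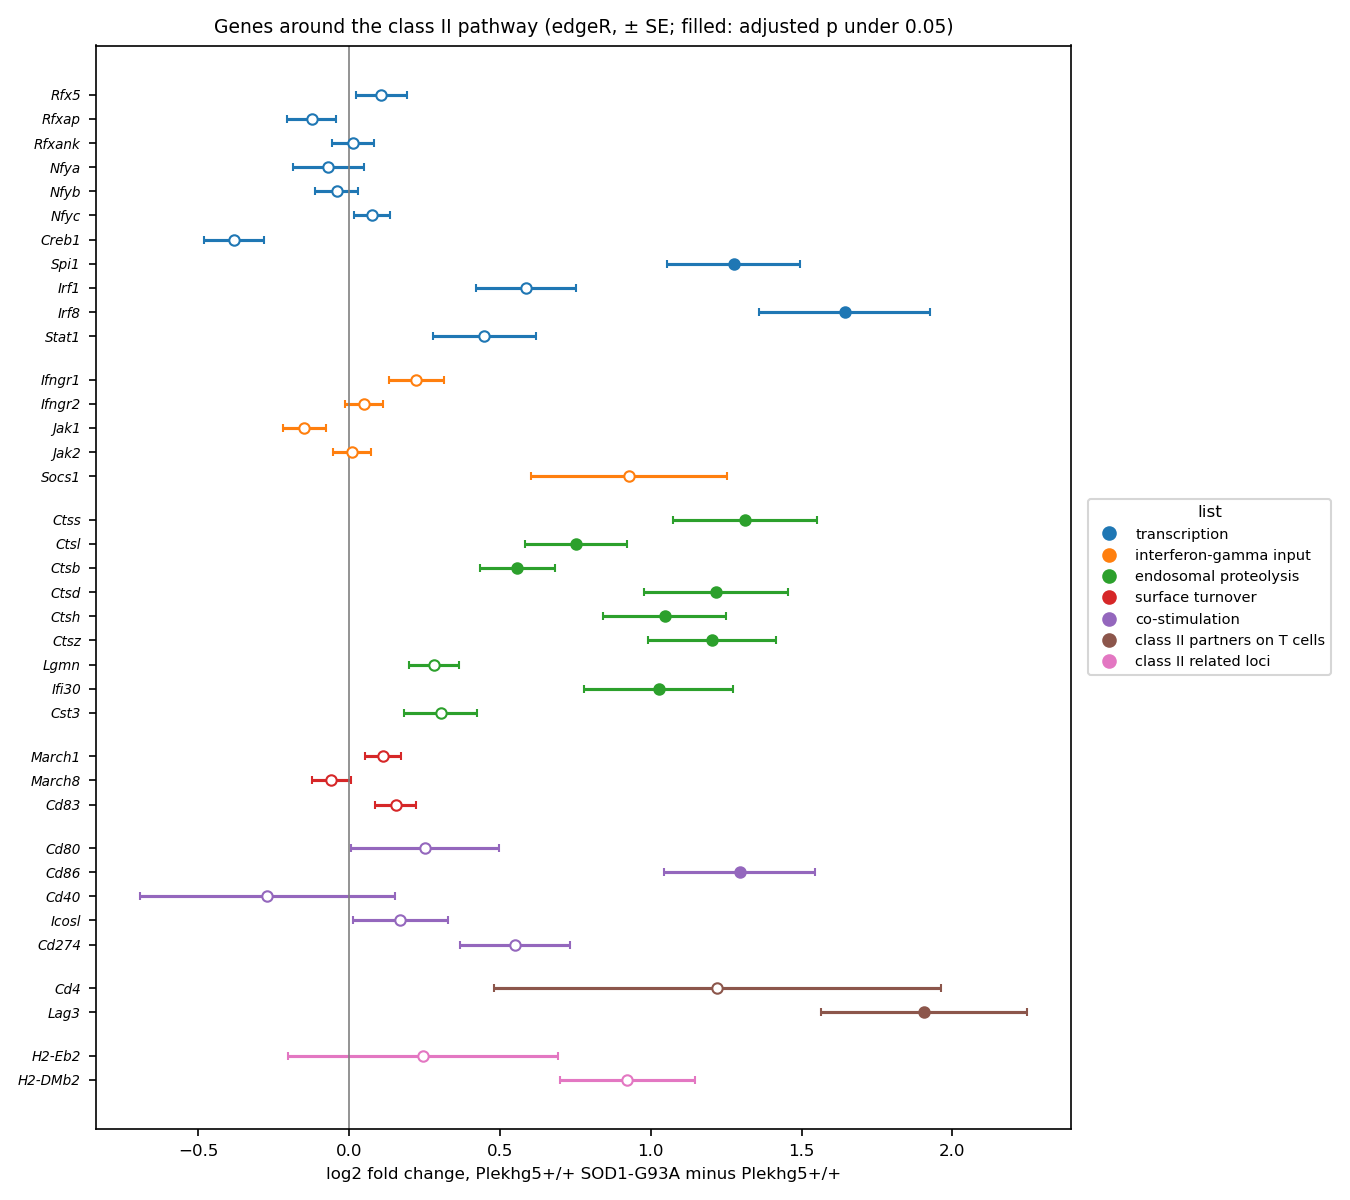
Log2 fold change between Plekhg5+/+ SOD1-G93A and Plekhg5+/+ mice (horizontal axis, points with SE from edgeR) of the genes around the class II pathway, coloured by list, with filled points for an adjusted p under 0.05. The filled points are 7 of 9 genes of endosomal proteolysis, Spi1, Irf8, Cd86 and Lag3.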

How the data were processed

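The authors trimmed reads with cutadapt 2.4, mapped them with STAR 2.7.2b to GRCm38.p6 with the human SOD1 cDNA added, and counted them by strand on RefSeq exons with featureCounts 1.6.4, sharing reads of several genes as fractions. The deposited values are therefore estimated counts per gene without normalization. Each column was matched to its mouse by name, and 0 columns were without a sample. P-values measure the spread between libraries that are labelled as separate replicates of a genotype.

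Counts were rounded and filtered with filterByExpr (20155 of 45906 genes kept), scaled by TMM and tested with edgeR 4.0.16 (robust quasi-likelihood) in R 4.3.3, with the 4 genotypes in 1 fit and Benjamini-Hochberg adjustment over all genes tested. The script was tested on simulated data. CPM use TMM sizes, and log2 CPM a prior count of 2. The edgeR test gives no SE. Each SE was derived as the absolute log2 fold change divided by the square root of the F statistic of its test. The libraries held 30415643 to 38743628 counts, so 1 read is 0.0259 to 0.0330 CPM. The alternatives were DESeq2 1.42.0, limma voom 3.58.1, DESeq2 size factors, other filters, fewer genotypes, a replicate block, an indicator of Y-linked transcripts (over 1000 counts) and each library left out.

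The genes and lists were chosen with earlier results of these data known. Named are the 9 genes, Plekhg5 and SOD1, list genes that passed, the most abundant gene per length of a list without one, the 5 genes most like Cd74 and H2-Aa, and markers. Some genes that these rules name are not reported here. Other list members were named after their values were seen. Plots were drawn with matplotlib 3.10.9 in Python 3.11.15.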

Additional observations from a re-analysis of the deposited data

How the results depend on the processing

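The count of class II genes that rose between Plekhg5+/+ SOD1-G93A and Plekhg5+/+ mice was 2 and moved to 0 with only these genotypes in the fit, and to between 0 and 3 with each library left out: 0 without Plekhg5+/+ library 1 or 2, and 1 without Plekhg5+/+ SOD1-G93A library 1. In the replicate block it was 3, with H2-DMa added (log2 fold change 0.49, edgeR adjusted p 0.0224), as with the indicator of Y-linked transcripts (edgeR adjusted p 0.0342) and both DESeq2 fits. The block changed no other call of the 9 genes. The replicate numbers belong to different mice: deviations of libraries with the same number had correlations of -0.16 to 0.32 (median 0.0055, 18 pairs), and with different numbers -0.33 to 0.28 (median -0.034, 36 pairs). Over all settings the adjusted p ranged from 6.12e-05 to 0.0916 for H2-Oa and from 0.000957 to 0.131 for H2-Ob, and the DESeq2 prior shrank their log2 fold changes to 0.51 and 0.48. In the other comparisons and the interaction, 0 of the 9 genes passed in every setting run. Over all genes, DESeq2 called 1198 genes with and 1172 without the prior in the first comparison, and limma voom 282, against 498 in edgeR. The edgeR count fell to 4 without Plekhg5+/+ library 1, to 2 without library 2 and to 3 with only these genotypes, and was 223 to 771 with each other library left out.

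Values near 0 changed sign. For H2-DMa between Plekhg5-/- SOD1-G93A and Plekhg5-/- mice, the log2 fold change of 0.0015 became -0.0014 with DESeq2 size factors, -0.0011 and -0.0013 with DESeq2 with and without the prior, -0.0039 without a filter, -0.0042 with at least 10 counts in every library and -0.0048 with only these genotypes. With limma voom, Cd74 became 0.035 between the transgenic genotypes and H2-Eb1 0.055 between Plekhg5-/- and Plekhg5+/+ mice. With 1 library left out, the following values crossed 0. Between Plekhg5-/- and Plekhg5+/+ mice H2-Eb1 ranged from -0.17 to 0.19, H2-Ob from -0.055 to 0.25 and H2-DMb1 from -0.33 to 0.013. Between the transgenic genotypes Cd74 ranged from -0.37 to 0.24, H2-Aa from -0.076 to 0.38, H2-Ab1 from -0.21 to 0.24 and H2-Eb1 from -0.11 to 0.18. For the transgene in Plekhg5-/- mice H2-DMa ranged from -0.045 to 0.061 and H2-Oa from -0.072 to 0.26. In the interaction Cd74 ranged from -0.096 to 0.51, H2-Eb1 from -0.14 to 0.22, H2-DMb1 from -0.30 to 0.055 and Ciita from -0.012 to 0.57. The cause was not tested. Ciita was removed by the filter of at least 10 counts in every library, and the interaction could not be computed with fewer genotypes. Counts were lowest for Ciita, with 5 to 21, and H2-Oa, with 11 to 73.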

Other observations

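T cells, to which class II molecules present, were rare. The sum of 6 T cell markers was 0.594 to 0.643 CPM in Plekhg5+/+, 0.410 to 0.633 in Plekhg5-/-, 0.906 to 1.59 in Plekhg5+/+ SOD1-G93A and 0.654 to 3.96 CPM in Plekhg5-/- SOD1-G93A libraries. The 3 transgenic Plekhg5+/+ libraries were thus above the controls, and the transgenic mice without Plekhg5 spread over a wider range. Cd3e, a part of the T cell receptor complex, had 0 to 2 counts in libraries without the transgene and 3 to 8 counts in those with it, and was too low to be tested. Cd4, the coreceptor for class II, had a log2 fold change of 1.22 (SE 0.741, edgeR adjusted p 0.422) between Plekhg5+/+ SOD1-G93A and Plekhg5+/+ mice, and none of the 3 markers tested passed in that comparison, where 0 had an unadjusted p under 0.05. For the transgene in mice without Plekhg5, 2 of these 3 markers had an unadjusted p under 0.05 in edgeR, against 1084 of the 20155 genes tested. The median log2 fold change of the 3 was 2.08, and none passed the adjusted threshold.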
